A study of Mus musculus with 9 samples.

Results

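Polycomb repressive complex 1 (PRC1) was examined through the transcripts of 9 of its genes in mouse embryonic stem cells (mESC). These were the genes of the RING ligases Ring1 and Rnf2, the chromobox (CBX) genes Cbx2, Cbx7 and Cbx8, the Polycomb group RING finger (PCGF) genes Pcgf6 and Bmi1, and the SCM genes Scml2 and Scmh1. They were chosen by name from the 38293 genes of the count table. RNA-seq was available for the E14 line of strain 129/Ola in 3 culture states with 3 libraries each, and all samples come from this single line. mESC-2i, labelled naive, were grown in N2B27 medium with the MEK inhibitor PD0325901, the GSK3 inhibitor CHIR99021 and leukaemia inhibitory factor (LIF). The titles of the mESC-2i libraries also carry the tag LT, which the titles of the other states lack. mESC-ser, labelled primed, were grown on gelatin in foetal bovine serum with LIF. EpiLC (epiblast-like cells) were derived from the naive cells on fibronectin in N2B27 with activin A, bFGF and KSR. The labels call the replicates biological and do not say what a replicate number marks, so the p-values speak for these libraries only.

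PRC1 attaches ubiquitin to histone H2A at genes that are kept silent. Each complex holds a RING ligase and a PCGF protein. Canonical complexes add a CBX protein, which binds the methyl mark that Polycomb complex 2 (PRC2) leaves on histone H3, and a polyhomeotic protein, whereas variant complexes carry RYBP or YAF2 instead of the CBX subunit. SCM proteins are relatives of the fly protein Sex comb on midleg and associate with PRC1 through their SAM domain. In mESC, Cbx7 is known as a main CBX subunit, and its exchange for other CBX proteins is a known feature of differentiation.

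The libraries held between 7187576 and 16829549 counts, and the 9 genes held between 10 and 4607 counts per library. The 8 naive markers summed to 3230 to 3290 CPM (counts scaled to library size) in mESC-2i, but 1680 to 1740 in mESC-ser and 92.6 to 104 in EpiLC. The 7 epiblast markers took the opposite order, at 108 to 122, 855 to 1000 and 2310 to 2410 CPM. Fgf5 was at 3 counts or fewer in every mESC-2i library and Prdm14 in every EpiLC library. The naive marker Zfp42 was not lower in mESC-ser (296 to 382 CPM) than in mESC-2i (287 to 303). The 4 general pluripotency markers summed to 1370 to 1750, 2110 to 2190 and 2080 to 2210 CPM in mESC-2i, mESC-ser and EpiLC. Among them Sox2 stood at 457 to 473, 475 to 566 and 57.6 to 69.1 CPM, and Utf1 at 24.1 to 30.5, 322 to 364 and 844 to 951. Markers of other lineages also differed between the states. Over 5 markers each, primitive endoderm genes summed to 9.09 to 9.46, 13.9 to 15.7 and 1.38 to 2.6 CPM in mESC-2i, mESC-ser and EpiLC, and trophoblast genes to 46.3 to 64.7, 112 to 125 and 19.1 to 23.8 CPM. The 5 neural genes summed to 184 to 208, 206 to 215 and 68.5 to 70.6 CPM, and the 5 mesoderm genes to 102 to 121, 20.9 to 25.3 and 12.4 to 14.4 CPM. The 6 fibroblast genes summed to 43.6 to 50.3, 58.4 to 77.3 and 40.8 to 45.2 CPM. Genes of a list did not move together. Krt8 held most of the trophoblast sum in every state, while Cdx2 stood at 14.6 to 17.2 CPM for mESC-2i, 2.17 to 2.87 for mESC-ser and 0 to 0.434 for EpiLC. Among the fibroblast genes Col1a1 was lowest in EpiLC, at 0.671 to 2.5 CPM, where Thy1 (27.4 to 31.5 CPM) and Dcn (6.73 to 9.8 CPM) were highest. Elf5, Lum and Mesp1 were at 3 counts or fewer in all 9 libraries. The part of these markers in the results below was not tested, and in bulk RNA a change in the share of cells and a change in RNA per cell cannot be told apart.

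Fold changes also moved with gene length. Across protein-coding genes, log2 fold changes and exonic lengths had a Spearman correlation of 0.280 for mESC-ser against mESC-2i. For EpiLC it was -0.300 against mESC-2i and -0.498 against mESC-ser. Once length and GC content were corrected for, the values were 0.0416, -0.0889 and -0.128. The exonic length of the 9 genes ran from 3243 to 7731 bases with a median of 4257, beside a median of 4484 for the tested protein-coding genes. Corrected values are therefore given beside those of the 9 genes, and corrected counts beside those of each gene list. Within mESC-2i, replicates 2 and 3 deviated with length in opposite directions (Spearman correlations across genes of -0.449 and 0.423). Within mESC-ser the correlations were -0.189, -0.263 and 0.309 for replicates 1, 2 and 3. Without mESC-2i replicate 2 or 3 each of the 9 genes kept its call, or lack of a call, in both comparisons with mESC-2i.

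Serum culture was first set against 2i culture. A gene was called at an edgeR adjusted p under 0.05 over all tested genes together with an absolute log2 fold change over 0.5. For mESC-ser against mESC-2i 5 of the 9 passed, beside 56.2% of all tested genes. Cbx7 was the gene called higher (25.9% of all tested genes were), and Ring1, Cbx8, Bmi1 and Scml2 were called lower (30.3% of all). The median log2 fold change was -0.12 over the 9 genes and -0.043 over all tested genes. The groups did not overlap in CPM for 6 of the 9, beside 70.7% of all tested genes.

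In EpiLC against mESC-2i, 8 of the 9 genes were called, beside 69.8% of all tested genes. Ring1, Cbx2 and Pcgf6 were called higher (32.0% of all) and Rnf2, Cbx8, Bmi1, Scml2 and Scmh1 lower (37.8% of all), and Cbx7 was not called. The median was -0.97, beside -0.11 over all tested genes, and 8 of the 9 genes did not overlap between the groups (81.8% of all). In EpiLC against mESC-ser, 8 genes were called as well, beside 73.3% of all. Ring1, Cbx2 and Cbx8 were called higher (35.5% of all) and Rnf2, Cbx7, Bmi1, Scml2 and Scmh1 lower (37.8% of all), and Pcgf6 fell short of the fold threshold. The median was -0.55, beside -0.068 over all, and the groups did not overlap for any of the 9 genes (85.7% of all did not). Each state enters 2 of the 3 comparisons, so the comparisons are not independent of each other. With length and GC content corrected for, 4, 7 and 8 of the 9 genes were called, beside 53.2%, 65.5% and 65.7% of all tested genes. The medians of the 9 genes were then 0.013, -0.91 and -0.19, beside -0.023, -0.0033 and 0.078 over all tested genes. In mESC-ser against mESC-2i 1 of the 9 was then higher and 3 lower (25.0% and 28.1% of all). For EpiLC these were 2 and 5 against mESC-2i (31.1% and 34.4% of all), and 4 and 4 against mESC-ser (34.7% and 31.0% of all).

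**Figure D1:**
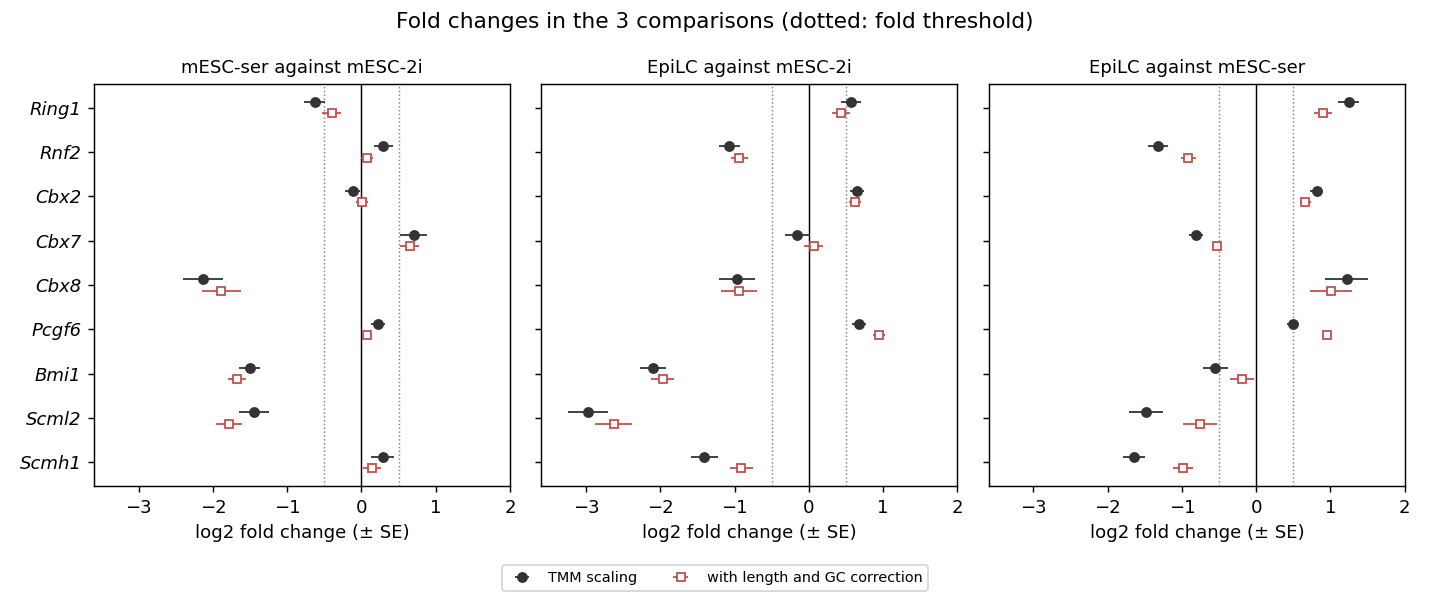
Log2 fold change with its SE (x axis) of the 9 genes (y axis) in each comparison, from the fit with TMM scaling (filled circles) and from the fit with length and GC correction (open squares), with dotted lines at the fold threshold of 0.5. Cbx8, Bmi1 and Scml2 lie left of the threshold in both comparisons with mESC-2i, and the open squares in EpiLC against mESC-ser lie closer to 0 than the circles for every gene except Pcgf6.

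The RING ligases were described first. Ring1 (ENSMUSG00000024325; mm10 chromosome 17, 34020792 to 34024680, minus strand) and Rnf2 (ENSMUSG00000026484; chromosome 1, 151458004 to 151500955, minus strand) encode the alternative E3 ligase subunits of PRC1. Their promoters are shown because the pair moved in opposite directions in EpiLC. The sequences are RefSeq promoters on GRCm38.p6, from 250 bases before to 50 bases after the start site, at chr17:34024631-34024930 for Ring1 and chr1:151500942-151501241 for Rnf2, both on the minus strand. Capitals mark GGGCGG, the GC box bound by SP1-type factors, on either strand.
Ring1: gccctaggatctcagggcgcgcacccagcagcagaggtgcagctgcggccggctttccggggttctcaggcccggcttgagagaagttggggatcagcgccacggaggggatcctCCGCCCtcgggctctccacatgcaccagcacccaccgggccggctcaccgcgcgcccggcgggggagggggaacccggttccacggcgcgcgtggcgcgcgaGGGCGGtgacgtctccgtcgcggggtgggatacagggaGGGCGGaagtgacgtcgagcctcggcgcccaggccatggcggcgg
Rnf2: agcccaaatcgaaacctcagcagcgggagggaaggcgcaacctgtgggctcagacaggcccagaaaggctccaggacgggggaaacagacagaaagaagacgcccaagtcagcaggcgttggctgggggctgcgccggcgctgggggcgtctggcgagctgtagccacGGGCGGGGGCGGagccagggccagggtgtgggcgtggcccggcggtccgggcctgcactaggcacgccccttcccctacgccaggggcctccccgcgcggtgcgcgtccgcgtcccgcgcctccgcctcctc
The Ring1 window held 3 GC boxes and 37 CpG dinucleotides and the Rnf2 window 2 and 30, where 35.7% of all 32851 promoter windows held a GC box and the median window held 7 CpG.

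Ring1 stood at 9.95, 10.9 and 11.3 CPM in the mESC-2i libraries, at 6.37, 7.81 and 7.52 in mESC-ser and at 15.0, 18.01 and 15.2 in EpiLC. The 3 states did not overlap, with mESC-ser lowest and EpiLC highest. Ring1 fell in mESC-ser against mESC-2i, at -0.63 on the log2 scale (SE 0.15, edgeR adjusted p = 0.00304). It rose in EpiLC by 0.56 (SE 0.14, edgeR adjusted p = 0.00312) over mESC-2i and by 1.24 (SE 0.14, edgeR adjusted p = 2.6e-07) over mESC-ser. After the length and GC correction the log2 fold changes were -0.40, 0.44 and 0.89, so the calls against mESC-2i fell short of the fold threshold. The EpiLC call over mESC-2i was also lost without EpiLC replicate 2 (0.48).

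Rnf2 had the higher level per length of the pair in all libraries. It stood at 115, 104 and 105 CPM in mESC-2i, at 152, 148 and 114 in mESC-ser and at 52.2, 40.9 and 63.1 in EpiLC. All EpiLC libraries lay below all mESC libraries, while mESC-2i and mESC-ser overlapped. Rnf2 fell in EpiLC, with log2 fold changes of -1.07 (SE 0.14, edgeR adjusted p = 4e-05) against mESC-2i and -1.32 (SE 0.14, edgeR adjusted p = 1.12e-07) against mESC-ser. The corrected values were -0.93 and -0.91. Between mESC-ser and mESC-2i it was at 0.30 (SE 0.13, edgeR adjusted p = 0.0612), and at 0.080 after the correction. The mESC-ser library was the higher in 3 of 3 same-numbered pairs, and with replicate number as a block the value was 0.29 (edgeR adjusted p = 0.0146), below the fold threshold. Of its exonic bases 3.83% overlap Trmt1l on the opposite strand, and the strand setting of the counting was not given in the sources used here.

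Levels were compared between genes as CPM divided by exonic length in kilobases (RPKM). RPKM, shares and sums carry no length and GC correction, so the trend of fold changes with length remains in them. Ring1 made up 11.3% ± 1.15 (SD, n = 3) of the summed RPKM of the pair in mESC-2i, but 6.37% ± 1.35 in mESC-ser and 28.7% ± 6.44 in EpiLC. The shares in single libraries were 9.95%, 11.8% and 12.1% for mESC-2i, 5.07%, 6.27% and 7.77% for mESC-ser and 26.8%, 35.9% and 23.5% for EpiLC, and the states did not overlap. Rnf2 thus held the larger part in every library, also in EpiLC. The summed RPKM of the pair was 29.4 ± 1.21 for mESC-2i, 35.6 ± 5.02 for mESC-ser and 17.6 ± 2.27 for EpiLC, and its EpiLC range of 15.5 to 20.0 lay below that of either mESC state. With 3 libraries against 3 an exact two-sided permutation test cannot go below p = 0.10, so shares and sums are given without a test.

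**Figure D2:**
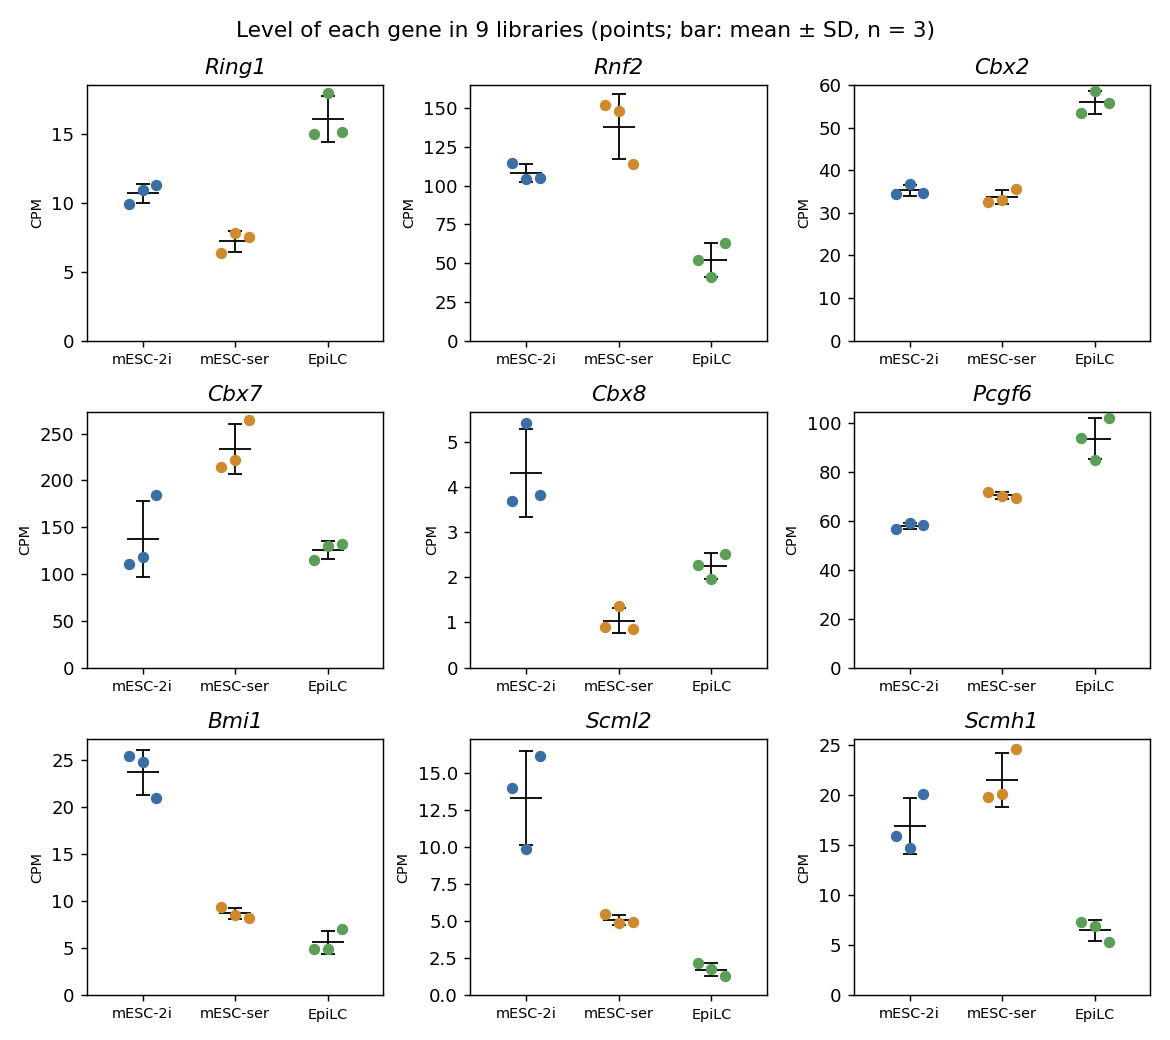
CPM of each of the 9 genes (y axis, from 0, a scale of its own in each panel) in the 3 states (x axis), with a point for each library and a bar for the mean ± SD (n = 3). Bmi1 and Scml2 are highest in mESC-2i and lowest in EpiLC, Cbx8 is lowest in mESC-ser, and Ring1, Cbx2 and Pcgf6 are highest in EpiLC.

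The CBX genes encode the subunits that read the PRC2 mark. Cbx7 (ENSMUSG00000053411; chromosome 15, 79915807 to 79971119, minus strand) had the highest mean level per length of the 9 genes in mESC-ser and EpiLC. It stood at 111, 118 and 184 CPM in mESC-2i, at 214, 222 and 264 in mESC-ser and at 115, 130 and 132 in EpiLC. All mESC-ser libraries lay above the rest, and mESC-2i replicate 3 stood above the other mESC-2i libraries. Cbx7 rose in mESC-ser over mESC-2i by 0.70 (SE 0.18, edgeR adjusted p = 0.00572), by 0.98 without mESC-2i replicate 3, and by 0.65 after the length and GC correction. It fell in EpiLC from mESC-ser (-0.81, SE 0.094, edgeR adjusted p = 4.8e-07), and the value was -0.53 after the length and GC correction. Between EpiLC and mESC-2i it was at -0.15 (SE 0.17, edgeR adjusted p = 0.432), a value that turned to 0.067 after the correction and to 0.12 without mESC-2i replicate 3. Of its exonic bases 1.54% overlap Apobec3 on the opposite strand.

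Cbx2 (ENSMUSG00000025577; chromosome 11, 119022962 to 119031270, plus strand) is a CBX protein known for compacting chromatin. It stood at 34.5, 36.7 and 34.5 CPM in mESC-2i, at 32.6, 33.01 and 35.6 in mESC-ser and at 53.4, 58.7 and 55.7 in EpiLC. The mESC states overlapped and all EpiLC libraries lay above both. Cbx2 rose in EpiLC by 0.65 (SE 0.094, edgeR adjusted p = 8.53e-05) over mESC-2i and by 0.81 (SE 0.087, edgeR adjusted p = 1.79e-07) over mESC-ser, and after the correction by 0.62 and 0.66. Between mESC-ser and mESC-2i it was at -0.12 (SE 0.10, edgeR adjusted p = 0.323), and at 0.013 after the correction.

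Cbx8 (ENSMUSG00000025578; chromosome 11, 119036305 to 119040969, minus strand) lies 5034 bases beyond the end of Cbx2 and is transcribed towards it. It was the member with the fewest reads in mESC-ser. Its libraries held 30, 65 and 49 counts for mESC-2i, 13, 16 and 15 for mESC-ser and 17, 18 and 20 for EpiLC, which corresponds to 3.68, 5.42 and 3.82, to 0.910, 1.36 and 0.861 and to 2.28, 1.95 and 2.51 CPM. The 3 states did not overlap. Cbx8 fell from mESC-2i to mESC-ser (-2.13, SE 0.27, edgeR adjusted p = 5.59e-05) and from mESC-2i to EpiLC (-0.97, SE 0.24, edgeR adjusted p = 0.00361). It was higher in EpiLC than in mESC-ser by 1.22 (SE 0.28, edgeR adjusted p = 0.000819). After the length and GC correction these values were -1.89, -0.94 and 1.01, and each call held. The neighbouring Cbx2 was not called in mESC-ser against mESC-2i, where Cbx8 changed most of the 3 comparisons.

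The Cbx8 promoter is shown as the CBX gene with the widest range between states. Its RefSeq window, chr11:119040864-119041163 (GRCm38.p6, minus strand), held 24 CpG dinucleotides, the palindrome CACGTG (an E-box, bound by MYC, MAX and MGA type factors) and a GC box directly after it, both in capitals. CACGTG was found in 7.15% of all promoter windows. No RefSeq promoter was matched for Cbx2.
Cbx8: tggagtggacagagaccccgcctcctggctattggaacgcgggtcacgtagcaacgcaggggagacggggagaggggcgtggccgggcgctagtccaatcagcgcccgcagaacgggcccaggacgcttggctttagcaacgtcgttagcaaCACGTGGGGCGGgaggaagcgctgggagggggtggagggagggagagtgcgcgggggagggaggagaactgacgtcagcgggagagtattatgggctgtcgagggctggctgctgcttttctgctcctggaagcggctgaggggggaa

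The shares within the CBX family were taken over Cbx2, Cbx6, Cbx7 and Cbx8, and so include Cbx6, another PRC1 chromobox gene. Cbx7 held 55.8% ± 5.94 (SD, n = 3) of the summed RPKM of these genes in mESC-2i, but 71.6% ± 0.498 in mESC-ser and 37.4% ± 2.47 in EpiLC. In single libraries these were 52.4%, 52.4% and 62.7%, then 71.3%, 71.4% and 72.2%, then 34.8%, 37.5% and 39.7%, without overlap between states. Cbx2 held 22.5% ± 4.01, 15.8% ± 0.890 and 25.3% ± 0.535, and Cbx8 3.20% ± 0.986, 0.573% ± 0.181 and 1.18% ± 0.176. Cbx6 held 18.5% ± 1.30 in mESC-2i and 12.0% ± 0.519 in mESC-ser, and 36.1% ± 2.95 in EpiLC, where its range overlapped that of Cbx7. Which of them led in EpiLC depended on the length used, since read counts alone gave 51.9% for Cbx6 and 32.9% for Cbx7. The summed RPKM was 37.6 ± 6.81, 50.3 ± 5.43 and 51.9 ± 1.53.

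**Figure D3:**
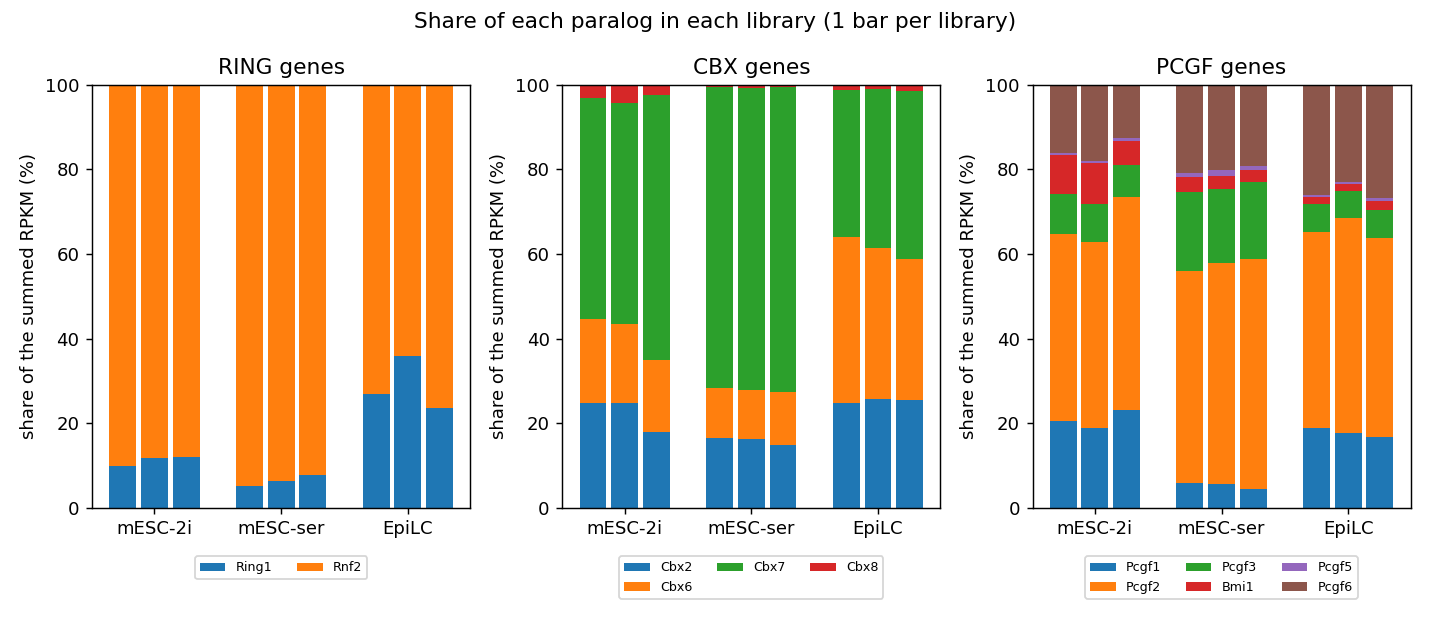
Share of each paralog (y axis, percent of the summed RPKM of its family) in each library (1 bar per library, 3 per state) for the RING, CBX and PCGF genes. Ring1 has its largest share in EpiLC, Cbx7 in mESC-ser, Cbx6 in EpiLC and Bmi1 in mESC-2i.

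PCGF proteins set the type of PRC1. Bmi1 (also Pcgf4; ENSMUSG00000026739; chromosome 2, 18677018 to 18686629, plus strand) belongs to canonical complexes and is known for its role in stem cell self-renewal through repression of the Cdkn2a locus. It stood at 25.4, 24.8 and 20.97 CPM in mESC-2i, at 9.31, 8.48 and 8.21 in mESC-ser and at 4.83, 4.88 and 7.04 in EpiLC. The 3 states did not overlap, with mESC-2i highest and EpiLC lowest. Against mESC-2i, Bmi1 fell in mESC-ser (-1.51, SE 0.14, edgeR adjusted p = 5.63e-06) and in EpiLC (-2.10, SE 0.17, edgeR adjusted p = 1.29e-06), and the corrected values were -1.68 and -1.97. It was also called lower in EpiLC than in mESC-ser (-0.55, SE 0.17, edgeR adjusted p = 0.00695). After the length and GC correction this last value was -0.19 (edgeR adjusted p = 0.268), and it was -0.45 without either of EpiLC replicates 1 and 2, so the call did not hold under these settings. Of the distinct 50-base stretches of its transcripts 16.7% also occur in 2 other genes of the annotation, so reads from these stretches may have been assigned elsewhere or dropped.

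The Bmi1 promoter is shown for the largest range between states among the PCGF members. Its RefSeq window, chr2:18676768-18677067 (GRCm38.p6, plus strand), held 23 CpG dinucleotides, 1 CACGTG and 6 GC boxes, counted on both strands with overlaps and given in capitals.
Bmi1: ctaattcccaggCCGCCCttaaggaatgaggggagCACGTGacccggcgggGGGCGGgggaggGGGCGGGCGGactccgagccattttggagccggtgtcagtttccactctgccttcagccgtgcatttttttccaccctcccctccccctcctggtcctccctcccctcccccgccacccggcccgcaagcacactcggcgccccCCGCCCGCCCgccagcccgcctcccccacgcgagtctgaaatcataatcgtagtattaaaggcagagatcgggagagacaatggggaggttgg

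Pcgf6 (ENSMUSG00000025050; chromosome 19, 47033617 to 47050906, minus strand) defines the variant complex that is recruited with MGA, MAX, E2F6 and L3MBTL2 and that is known for silencing germ line genes in mESC. It stood at 56.5, 59.0 and 58.5 CPM in mESC-2i, at 71.9, 70.0 and 69.4 in mESC-ser and at 93.8, 84.9 and 102 in EpiLC. The states did not overlap, and the order was the opposite of that of Bmi1. Pcgf6 rose in EpiLC over mESC-2i by 0.67 (SE 0.094, edgeR adjusted p = 6.65e-05), and by 0.95 after the length and GC correction. In EpiLC against mESC-ser it was at 0.49 (SE 0.085, edgeR adjusted p = 4.44e-05), just short of the fold threshold, and was called at 0.95 after the correction. Between mESC-ser and mESC-2i it was at 0.22 (SE 0.092, edgeR adjusted p = 0.0533), and at 0.075 after the correction. With replicate number as a block, a pairing that was assumed, the adjusted p of edgeR was 0.0255 at the same value of 0.22, below the fold threshold. A stretch shared with 361 other genes makes up 0.567% of its 50-base stretches.

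Within the PCGF family Bmi1 held 8.13% ± 2.08 (SD, n = 3) of the summed RPKM in mESC-2i, but 3.12% ± 0.268 in mESC-ser and 1.90% ± 0.378 in EpiLC. Pcgf6 held 15.6% ± 2.67, 20.05% ± 0.821 and 25.2% ± 2.05. The largest share in every state was that of Pcgf2 (Mel18, the paralog of Bmi1 in canonical complexes), at 46.2% ± 3.75, 52.3% ± 2.15 and 48.1% ± 2.46. Pcgf2 was not called in any comparison. Pcgf1, of the variant complex with KDM2B and BCOR, held 20.9% ± 2.08, 5.25% ± 0.792 and 17.8% ± 1.04. Pcgf3 held 8.68% ± 1.02, 18.1% ± 0.645 and 6.52% ± 0.0877, and Pcgf5 stayed between 0.485% and 1.11% in the group means. The summed RPKM of the 6 genes was 75.8 ± 14.1, 69.9 ± 1.82 and 73.8 ± 2.07, with overlapping ranges.

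Scml2 and Scmh1 are the SCM members. Scml2 (ENSMUSG00000000037; chromosome X, 161117193 to 161258213, plus strand) is known for its role in the male germ line and had the widest range of all 9 genes, 2.63 between the group means of log2 CPM. Its libraries held 114, 118 and 207 counts for mESC-2i, 78, 57 and 86 for mESC-ser and 16, 16 and 10 for EpiLC. These are 9.84 to 16.1 CPM, then 5.46, 4.84 and 4.94, then 2.15, 1.74 and 1.26, so the 3 states did not overlap. Against mESC-2i, Scml2 fell in mESC-ser (-1.45, SE 0.20, edgeR adjusted p = 0.000112) and in EpiLC (-2.97, SE 0.27, edgeR adjusted p = 2.52e-06). It fell from mESC-ser to EpiLC as well (-1.48, SE 0.23, edgeR adjusted p = 1.23e-05). After the length and GC correction the 3 values were -1.78, -2.63 and -0.76, each still past both thresholds.

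The Scml2 promoter is shown as that of the gene with the widest range. The RefSeq start site of this window, chrX:161162500-161162799 (GRCm38.p6, plus strand), lies 45557 bases inside the GENCODE gene, so the window need not be the start used in these cells. It held 13 CpG dinucleotides and neither CACGTG nor GGGCGG, hence no capitals. TATAAA and the E2F motif TTTCCCGC, present in 13.6% and 1.07% of all windows, were found in none of the 9 windows of the 8 genes that matched.
Scml2: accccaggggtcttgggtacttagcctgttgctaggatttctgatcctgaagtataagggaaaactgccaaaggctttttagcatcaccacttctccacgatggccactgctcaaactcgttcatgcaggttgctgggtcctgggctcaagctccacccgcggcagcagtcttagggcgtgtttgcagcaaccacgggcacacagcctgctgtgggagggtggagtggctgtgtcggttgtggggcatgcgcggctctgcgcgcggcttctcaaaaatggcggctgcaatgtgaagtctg

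Scmh1 (ENSMUSG00000000085; chromosome 4, 120405281 to 120530186, plus strand) was expressed differently from Scml2. It stood at 15.8, 14.7 and 20.0 CPM in mESC-2i, at 19.7, 20.02 and 24.6 in mESC-ser and at 7.25, 6.83 and 5.28 in EpiLC. The mESC states overlapped and all EpiLC libraries lay below both. Scmh1 fell in EpiLC against mESC-2i (-1.41, SE 0.18, edgeR adjusted p = 3.59e-05) and against mESC-ser (-1.65, SE 0.15, edgeR adjusted p = 2.04e-08), and these values were -0.91 and -0.99 after the length and GC correction. Between mESC-ser and mESC-2i it was at 0.29 (SE 0.15, edgeR adjusted p = 0.123), and at 0.14 after the correction. Under the assumed pairing by replicate number, the mESC-ser library was the higher in 3 of 3 pairs. With that number as a block the edgeR adjusted p was 0.0328 at a value of 0.29, below the fold threshold. Without mESC-2i replicate 3 the value was 0.45.

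Per length, the order of the 9 genes differed between states. In mESC-2i Rnf2 (26.1 ± 1.42 RPKM) and Cbx7 (21.2 ± 6.25) stood first with overlapping libraries, followed by Pcgf6 (11.5 ± 0.260), Cbx2 (8.28 ± 0.294), Bmi1 (5.97 ± 0.604) and Ring1 (3.31 ± 0.216) without overlap between neighbours. Scml2 (2.19 ± 0.527) and Scmh1 (2.18 ± 0.365) overlapped, and Cbx8 (1.17 ± 0.263) was lowest. In mESC-ser Cbx7 (36.03 ± 4.15) and Rnf2 (33.4 ± 5.11) overlapped at the top and Ring1 (2.23 ± 0.234) overlapped Bmi1 (2.18 ± 0.144), with Scml2 (0.835 ± 0.0550) and Cbx8 (0.284 ± 0.0744) at the bottom. In EpiLC the pairs Cbx7 (19.4 ± 1.48) and Pcgf6 (18.6 ± 1.70), Cbx2 (13.1 ± 0.621) and Rnf2 (12.6 ± 2.69), and Scmh1 (0.835 ± 0.134) and Cbx8 (0.612 ± 0.0766) overlapped. Scml2 was lowest there at 0.282 ± 0.0734 RPKM.

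The genes whose profile over the 9 libraries was most like that of a member were sought among 11710 genes for the 3 members with the widest range. Likeness was measured as the root mean square difference of centred log2 CPM, without the length and GC correction. Whether a shared trend with length entered the matches was not tested. For Scml2 these were Slc18b1 (0.154), Sh3gl2 (0.167) and Tmem136 (0.197). For Bmi1 they were Btg1 (0.132), Phf11d (0.148) and Spata6 (0.152). For Scmh1 they were Dusp16 (0.0975), Itsn1 (0.119) and Esyt3 (0.122). Btg1, for instance, had group means of 59.5, 19.7 and 12.8 CPM in mESC-2i, mESC-ser and EpiLC.

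The other Polycomb genes were counted by list for comparison. Of 54 such genes 52 were tested for mESC-ser against mESC-2i, and 22 were called higher and 8 lower, with a median of 0.40. For EpiLC 4 of 51 were called higher and 20 lower against mESC-2i (median -0.41), and 8 of 52 were higher and 34 lower against mESC-ser (median -0.86). These splits moved with the length and GC correction, to 16 higher and 10 lower, 7 and 15, and 11 and 20, with medians of 0.16, 0.021 and -0.20. Over all tested genes 25.9%, 32.0% and 35.5% were called higher and 30.3%, 37.8% and 37.8% lower, and the counts of the single lists stand beside these shares.

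Among the other canonical subunits, 1 of 4 genes was called higher and 1 lower in mESC-ser against mESC-2i. For EpiLC these were 2 and 2 against mESC-2i, and 1 and 2 against mESC-ser. The 3 splits after the length and GC correction were 1 and 2, 2 and 2, and 1 and 0. Cbx6 rose in EpiLC to 199 ± 15.6 CPM from 73.03 ± 8.19 in mESC-2i (1.42, SE 0.11, edgeR adjusted p = 7.22e-07) and 64.0 ± 9.79 in mESC-ser (1.72, SE 0.10), and the corrected values were 1.91 and 2.49. Phc1, which encodes a polyhomeotic subunit, stood at 176 ± 23.7, 666 ± 67.9 and 399 ± 16.5 CPM in mESC-2i, mESC-ser and EpiLC and was called in all 3 comparisons. Its fall from mESC-ser to EpiLC (-0.65) was -0.49 after the correction, short of the fold threshold. The other polyhomeotic genes fell. Phc2 was lower than in mESC-2i in mESC-ser (-0.96, SE 0.11) and in EpiLC (-1.12, SE 0.11), with corrected values of -1.155 and -1.04. Phc3 fell in EpiLC from mESC-2i (-1.48, SE 0.34) and from mESC-ser (-1.86, SE 0.13). Its corrected values were -0.67 and -0.30, the latter not called.

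Of the 4 other PCGF genes, 2 were called higher and 1 lower in mESC-ser against mESC-2i. For EpiLC none was called against mESC-2i, and 1 was higher and 2 lower against mESC-ser. Corrected for length and GC content, none was higher and 1 lower in the first comparison, 1 was lower against mESC-2i in EpiLC, and 1 was higher and none lower against mESC-ser. Pcgf1 fell in mESC-ser from 26.4 ± 7.58 to 6.03 ± 0.772 CPM (-2.20, SE 0.21, edgeR adjusted p = 9.75e-06) and stood at 21.6 ± 0.655 CPM in EpiLC, higher than in mESC-ser by 1.93 (SE 0.13), with corrected values of -1.86 and 1.36. The call of Pcgf3 in mESC-ser (0.91, SE 0.10) was lost after the correction (0.40), as was its fall in EpiLC from mESC-ser (-1.32, then -0.22). Pcgf5 likewise lost its call in mESC-ser (0.83, SE 0.15, then 0.090), and its fall in EpiLC from mESC-ser (-1.02, SE 0.17) turned to 0.39, short of the fold threshold. After the correction Pcgf1 was also called lower in EpiLC against mESC-2i, at -0.57.

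Variant PRC1 partners numbered 20. 8 were called higher and 4 lower in mESC-ser against mESC-2i. For EpiLC these were 1 and 9 against mESC-2i, and 3 and 12 against mESC-ser. The splits after the length and GC correction were 5 and 5, 2 and 6, and 5 and 9. Mga and Tfdp1, which encode DNA-binding partners of the PCGF6 complex, were higher in mESC-ser than in mESC-2i by 1.32 (SE 0.19) and 1.23 (SE 0.099), and fell in EpiLC from mESC-ser (-2.59, SE 0.081, and -2.50, SE 0.093). After the correction the Mga values were 0.58 and -1.08 and those of Tfdp1 1.29 and -2.41. Csnk2b, a casein kinase subunit found in variant complexes, rose in EpiLC over mESC-2i by 1.58 (SE 0.095), and Fbrsl1 fell (-3.51, SE 0.24), with corrected values of 1.41 and -3.35. Pcgf6 itself was highest in EpiLC, where Mga stood at 66.8 ± 2.42 CPM, beside 164 ± 51.7 in mESC-2i and 427 ± 9.29 in mESC-ser.

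Of the 7 other SCM, SFMBT and MBT genes, 5, 4 and 5 were tested. Of these 2 were called higher in mESC-ser than in mESC-2i, 2 lower in EpiLC than in mESC-2i and 4 lower in EpiLC than in mESC-ser. After the length and GC correction the first count was again 2. In EpiLC 1 gene was then higher and none lower against mESC-2i, and 1 was higher and 2 lower against mESC-ser, with the median of the latter going from -1.24 to 0.16. In EpiLC against mESC-ser the genes that stayed called lower were Sfmbt2 (-3.27, SE 0.13, then -2.29) and L3mbtl1 (-1.60, SE 0.45, then -1.70). L3mbtl1 held only 4, 3 and 4 counts in the EpiLC libraries. Mbtd1 went from -1.24 to 0.24 in that comparison. L3mbtl3 lost its fall in EpiLC from mESC-2i (-0.54, then 0.021). Sfmbt2 stood at 15.1 ± 4.76, 77.7 ± 4.90 and 7.65 ± 1.67 CPM in mESC-2i, mESC-ser and EpiLC, and rose in mESC-ser over mESC-2i by 2.30 (SE 0.19), and by 1.88 after the correction. Its fall in EpiLC from mESC-2i (-1.01, SE 0.24) was -0.48 after the correction and no longer called.

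The enzymes that oppose PRC1 by removing ubiquitin from H2A, with their ASXL partners, were 7 genes. Of these 4 were called higher and 1 lower in mESC-ser against mESC-2i. For EpiLC these were 0 and 2 against mESC-2i, and 1 and 6 against mESC-ser. After the correction the splits were 4 and 0, 0 and 1, and 1 and 3. Asxl3 and Asxl1 rose most in mESC-ser over mESC-2i (1.71, SE 0.27, and 1.13, SE 0.16), with corrected values of 1.065 and 1.07. Usp21 was the gene called lower in mESC-ser (-0.52, SE 0.11, and no longer called after the correction, at -0.44) and higher in EpiLC against mESC-ser (0.90, SE 0.084, and 0.84 after the correction). Mysm1 fell in EpiLC from mESC-2i (-1.16, SE 0.25) and from mESC-ser (-2.21, SE 0.095), and these values were -0.66 and -1.08 after the correction.

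PRC2 places the mark that CBX proteins bind. Of its 12 genes 5 were called higher and 1 lower in mESC-ser against mESC-2i. For EpiLC these were 1 and 5 against mESC-2i, and 2 and 8 against mESC-ser. Corrected for length and GC content, the splits were 4 and 2, 2 and 5, and 2 and 6, and the median in mESC-ser against mESC-2i went from 0.31 to -0.022. Suz12, a core subunit, stood at 240 ± 6.71 CPM in mESC-2i and 286 ± 12.3 in mESC-ser, and fell to 50.9 ± 5.19 CPM in EpiLC (-2.26 against mESC-2i, SE 0.10, edgeR adjusted p = 1.82e-08, and -2.01 after the correction). Jarid2, an accessory subunit, rose in mESC-ser from 168 ± 15.2 to 842 ± 91.3 CPM (2.26, SE 0.12, and 1.93 after the correction) and stood at 129 ± 3.38 CPM in EpiLC. Phf19, another accessory subunit, rose in mESC-ser by 3.59 (SE 0.20, and 3.73 after the correction) from 1.13 ± 0.176 CPM.

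**Figure D4:**
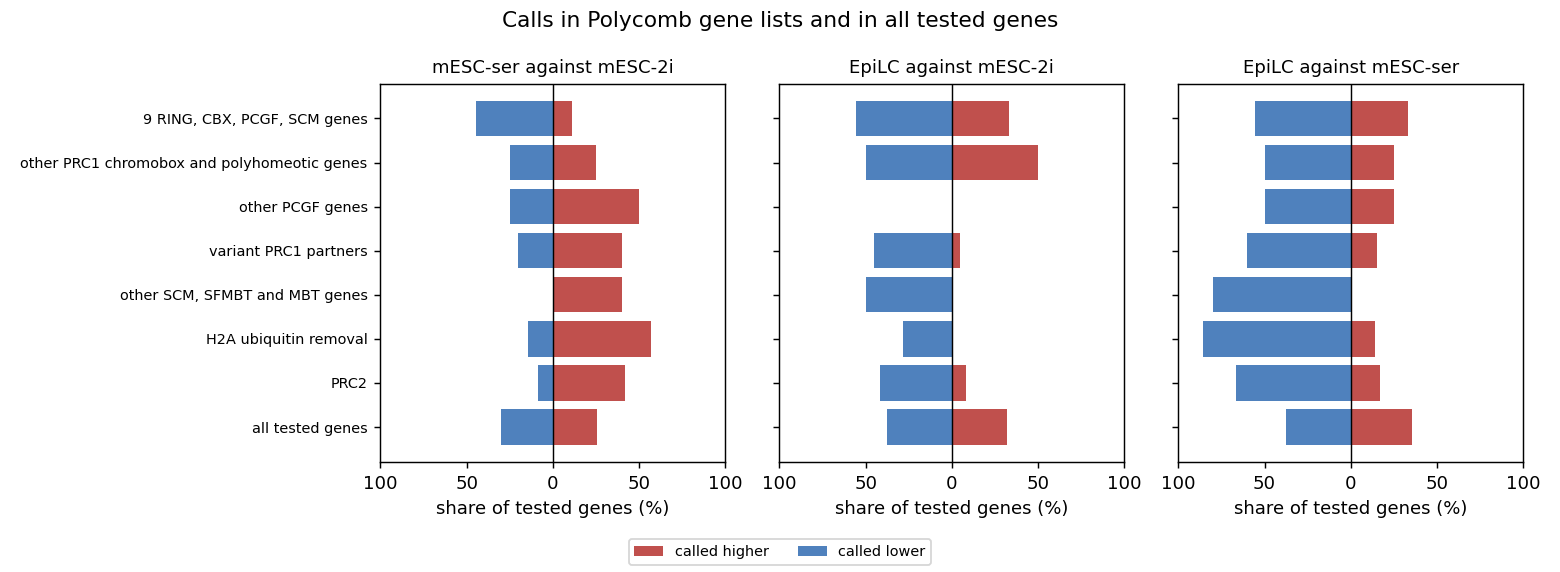
Share of tested genes called higher (red, to the right) and lower (blue, to the left) on the x axis, in percent, for the 9 genes, 6 other Polycomb lists and all tested genes (y axis) in each comparison, from the fit with TMM scaling. In mESC-ser against mESC-2i 4 of the 9 genes were called lower and 1 higher, and PRC2 had 1 lower and 5 higher. Of all tested genes 30.3% were called lower and 25.9% higher. With length and GC content corrected for, which is not plotted, the counts were 3 and 1 for the 9 genes and 2 and 4 for PRC2. The corrected shares of all tested genes were 28.1% and 25.0%.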

How the data were processed

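Poly-A RNA of 9 libraries was sequenced as 50-base single-end reads. Trimming by the authors used TrimGalore 0.6.6, and they aligned to mm10 with HISAT2 2.2.1 and counted reads per gene with featureCounts (Subread 2.0.1). The deposited values are raw counts per gene. The annotation release, strand setting and treatment of multi-mapping reads were not given in the sources used here.

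Each pair of states was fitted on its 6 libraries with edgeR 4.0.16 (R 4.3.3, limma 3.58.1), using filterByExpr, TMM scaling and the quasi-likelihood F-test with Benjamini-Hochberg adjustment over all tested genes. A call needed an adjusted p under 0.05 and a log2 fold change beyond 0.5 in either direction, as in the study's methods for the fold. SE were taken from the F statistic. CPM were scaled by TMM over all 9 libraries, and RPKM used the union of exons in GENCODE M21, which matched 36429 of 38293 genes (95.1%). Length and GC content were corrected for with offsets from natural splines with 5 degrees of freedom in each library. Promoter sequences came from RefSeq (GRCm38.p6).

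The 9 genes, the gene lists and the markers were chosen with earlier results of these data known. An item that met the rules for named genes and shares is not reported here and was left out of the lists and shares. Named were the 9 genes, their paralogs in a share, and from each other Polycomb list at most the 2 calls that rose most and the 2 that fell most in a comparison. Likeness was computed for the 3 members with the widest range, over genes tested in all comparisons with a mean of at least 5 CPM, on log2(CPM + 0.5). Libraries held at least 7187576 counts. Reads carried no molecular identifiers, and no separate interval for counting error was computed. The SD give the spread between libraries. Each SE comes from the edgeR fit, whose variance includes counting error and a dispersion informed by other genes.

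Same-numbered mESC-ser and mESC-2i libraries deviated together from their group means across genes (correlations of 0.129, 0.181 and 0.345). With different numbers, mESC-ser replicate 1 and mESC-2i replicate 2 gave 0.146, and mESC-ser replicate 2 and mESC-2i replicate 1 gave 0.0659. Pairs of a replicate 3 with another number gave -0.278 to -0.165. Numbers 1 and 2 were thus not told apart, and pairing by number was assumed for the blocked fit. Replicate 3 of both groups also deviated with gene length in the same direction (Spearman correlations of 0.423 in mESC-2i and 0.309 in mESC-ser). Whether this entered the correlations between libraries was not tested. The fits behind the printed values carry no block, and the blocked fit is an alternative. The alternatives were total-count and RLE scaling, DESeq2 1.42.0, a filter of at least 10 counts in every library or none, all libraries in a single fit, replicate number as a block, a nominal p under 0.01, an absolute log2 fold change over 1, the length and GC correction, and leaving out each replicate.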

Additional observations from a re-analysis of the deposited data

How the results depend on the processing

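Over 378 alternative values of the 27 log2 fold changes of the 9 genes, 360 kept their direction and whether the gene was called, 10 lost a call, 5 gained a call and 3 turned direction. In 15 of the 360 the adjusted p alone crossed 0.05. Of these 13 were of Rnf2, Pcgf6 or Scmh1 in mESC-ser against mESC-2i, which passed it with values below the fold threshold, and total-count scaling gave the others, Cbx7 in EpiLC against mESC-2i (-0.49) and Pcgf6 in EpiLC against mESC-ser (0.16, edgeR adjusted p = 0.102). Those that turned direction were not called in any fit: Cbx2 in mESC-ser against mESC-2i (0.013 with the length and GC correction) and Cbx7 in EpiLC against mESC-2i (0.067 with that correction and 0.12 without mESC-2i replicate 3, in a range of -0.24 to 0.12 over left-out replicates). At an absolute log2 fold change over 1, 3 of the 9 genes and 4935 of all tested genes (31.4%) passed in mESC-ser against mESC-2i. For EpiLC 4 of the 9 passed against mESC-2i (48.5% of all) and 5 against mESC-ser (51.9% of all). Total-count scaling moved the median of all genes in EpiLC against mESC-2i to -0.45 and left 5 of the 9 genes called, all lower, where 24.1% of all tested genes were called higher and 47.4% lower. Ring1, Cbx2 and Pcgf6 were then at 0.23, 0.31 and 0.33, which is 0.67, 0.76 and 0.78 above that median. In EpiLC against mESC-ser it moved the median to -0.41 and left Cbx2 uncalled (0.47). There Pcgf6 was called with RLE scaling (0.52), with the length and GC correction, and without EpiLC replicate 1 or 2 or mESC-ser replicate 1. Leaving out a replicate gave 5 called genes throughout in mESC-ser against mESC-2i, beside 53.5% to 58.8% of all tested genes. For EpiLC it gave 7 to 8 against mESC-2i (67.6% to 70.9% of all) and 8 to 9 against mESC-ser (71.3% to 73.4% of all). With replicate number as a block 5, 8 and 8 of the 9 genes were called, as without it. Of all tested genes 8953, 10759 and 11207 were then called (56.9%, 70% and 73%). In the comparisons with EpiLC same-numbered libraries correlated at 0.016 to 0.112, and the numbers were not taken as pairs.

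Shares within gene families moved by more than 1 SD in 28 of 36 with read counts in place of RPKM, and in 22 of 36 with the length of the longest transcript, an alternative chosen after seeing the data. Both change only the divisor, so neither addresses the trend of fold changes with length. Depth limited Cbx8 and Scml2 most, with 10 to 20 counts per library in some states.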

Other observations

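Commd3, a subunit gene of a protein-trafficking complex, ends 786 bases upstream of Bmi1 on the same strand, and was looked at after its values were seen. It stood at 52.9 ± 1.59 CPM (SD, n = 3) in mESC-2i, but at 10.7 ± 3.22 in mESC-ser and 20.4 ± 0.690 in EpiLC. Against mESC-2i it fell in mESC-ser (log2 fold change -2.38, SE 0.20, edgeR adjusted p = 3.05e-06) and in EpiLC (-1.39, SE 0.097, edgeR adjusted p = 3.97e-07), where the values of Bmi1 were -1.51 and -2.10. In EpiLC against mESC-ser Commd3 rose by 1.04 (SE 0.18, edgeR adjusted p = 3.56e-05), where Bmi1 was at -0.55.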
